A study of Mus musculus with 12 samples.

Results

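Cholesterol genes were examined in RNA-seq of mouse hippocampus, as a set of 31 genes chosen by symbol: 18 enzymes of cholesterol synthesis, 5 regulators of the pathway, 4 genes of uptake and intracellular transport, and 4 genes of export and turnover. All 31 were found among the 46078 gene IDs of the table, and all 31 passed the filter on low values. The tested animals were mutant males and mutant females of strain C57BL/6 that carry 1 copy of the CHD8 allele Asn2373LysfsX2, a frameshift of the chromatin remodeller Chd8. They were set against WT males and WT females of the same strain, all at postnatal day 25 (P25) and with 3 libraries per group. The comparisons of the design are genotype, sex and their combination. The labels do not say that libraries of a group came from separate mice, so p-values measure the spread between libraries, which may be technical. Nor do they say how the allele was made, and whole hippocampus mixes neurons, glia and vessels.

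Brain cholesterol is made almost entirely within the brain, because circulating lipoproteins do not cross the blood-brain barrier. Oligodendrocytes use much of it for myelin in the first weeks after birth. When sterol is scarce, Scap escorts the membrane-bound transcription factors Srebf1 and Srebf2 to the Golgi, where they are cut and released to switch on synthesis and uptake genes, and Insig proteins hold this complex back when sterol is plentiful. Astrocytes load cholesterol onto apolipoprotein E through ABC transporters, neurons take the particles up through Lrp1 and related receptors, Npc1 and Npc2 carry the sterol out of lysosomes, and neuronal Cyp46a1 hydroxylates the surplus so that it can leave the brain.

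Chd8 was lower in every mutant library than in any WT library. Levels are normalized counts, which are the read counts of a library divided by its own size factor. Chd8 had 2423, 2383 and 2508 normalized counts in mutant males, against 2751, 2994 and 2855 in WT males, and 2477, 2426 and 2513 in mutant females, against 2893, 2845 and 2872 in WT females. The averaged log2 difference was -0.22 with a standard error (SE) of 0.03 (limma adjusted p = 0.0289). This call was lost without 10 of the 12 libraries in turn and under some other settings, such as no filter on low values (limma adjusted p = 0.0538), with a difference of -0.24 to -0.21 throughout those left-out fits. Here and throughout, differences are mutant minus WT on the log2(normalized count + 1) scale, and p-values are adjusted by Benjamini-Hochberg over 17496 tested genes with a threshold of 0.05. Depth was confounded with genotype: 23721482 to 24654408 reads per mutant library, against 26912998 to 33327314 reads per WT library. Choroid plexus, which makes cerebrospinal fluid and borders the hippocampus, had markers that were low in mutant male 2, mutant male 3 and WT female 1 (mean log2 level of 12 markers 5.40, 6.00 and 5.35) and lay between 9.58 and 11.3 in the other 9 libraries. Without those 3 libraries mutant male 1 is the only mutant male, so every male or genotype-by-sex value given without them sets that 1 library against WT males, with the spread taken from the other groups, and averaged values take their male part from it. Markers of excitatory hippocampal neurons were present in every library, with 0 of 8 listed at 0. Their averaged log2 differences were positive for 8 of 8 (median 0.06). By sex they were positive for 7 of 8 in males (median 0.12) and for 6 of 8 in females (median 0.02). Averaged differences were positive for 5 of 6 inhibitory neuron markers (median 0.04), 7 of 8 astrocyte markers (median 0.03) and 4 of 5 microglia markers (median 0.02). Endothelial markers were positive for 5 of 5 (median 0.09). Fibroblast markers were positive for 6 of 6 in females (median 1.29, with 5 at an unadjusted p under 0.05) and for 4 of 6 in males (median 0.16, with 0 at that level). Red blood cell markers were positive for 5 of 5 in females (median 0.77, with 4 at that level) and for 0 of 5 in males (median -0.18). Of all tested genes, 3.82% were higher at that level in females and 4.1% in males. In limma 0 of these markers passed the adjustment, and their part in the results was not tested.

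Levels of the cholesterol genes spanned 3 orders of size when divided by annotated exon length. Without Fdps, whose level is uncertain, they ran from 123 to 12425 normalized counts per kb. Apoe, the lipoprotein that carries cholesterol between brain cells, stood highest at 12425 ± 735 normalized counts per kb (SD over 12 libraries). Hmgcs1, which makes the precursor HMG-CoA, followed at 2300 ± 133 per kb. Cyp46a1 came next at 1016 ± 80.5 per kb, and the ranges of these genes over the 12 libraries did not overlap each other or the next gene. Below them the order was Srebf2 at 753 per kb, Lrp1 at 730 per kb, the isomerase Idi1 at 598 per kb and the sterol demethylase Cyp51 at 573 per kb. Of the 30 neighbouring pairs in the whole order, 25 had overlapping ranges, so ranks in the middle are not resolved. By subgroup, the median level per kb was 590 for export and turnover, 375 for regulation, 310.03 for synthesis and 260.1 for uptake and intracellular transport. The export median falls in a gap between Cyp46a1 at 1016 per kb and Abcg1 at 164 per kb, with Abca1 at 147 per kb, so it describes no gene of that subgroup.

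**Figure D1:**
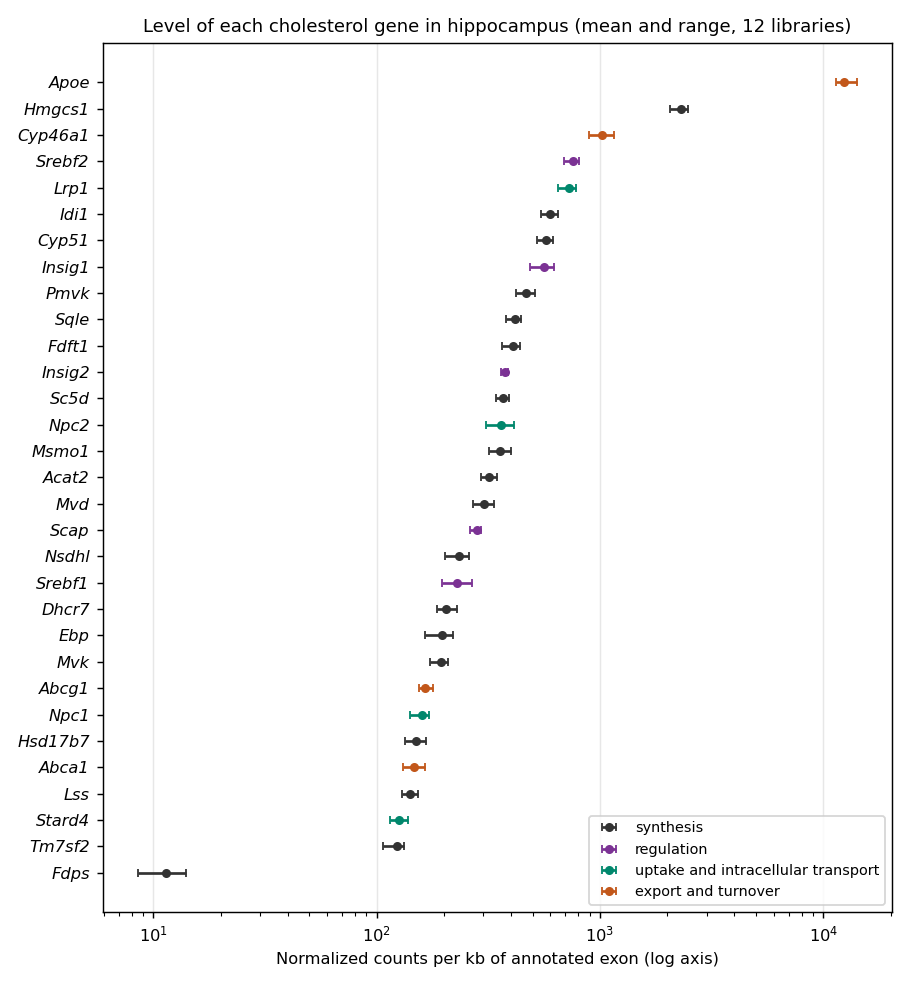
Mean level of each of the 31 genes in normalized counts per kb of annotated exon (horizontal log axis), with bars from the lowest to the highest of 12 libraries and colours for the subgroups. Apoe stands alone at 12425 per kb, and Fdps lies lowest at 11.3 per kb.

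At the low end, Tm7sf2, a sterol reductase, had 123 normalized counts per kb and Stard4, a cytosolic sterol carrier, had 126 per kb. Fdps, which makes farnesyl diphosphate, had only 47.7 normalized counts on average, or 11.3 per kb, and a coefficient of variation of 16.1% over libraries. The other 17 synthesis enzymes had a coefficient of variation of 3.27% to 8.57%. The sources used here do not give how reads shared with near-identical copies were counted, so the level of Fdps is uncertain. The library kit does not keep strand. Exons of Hmgcs1, Idi1, Fdft1, Lss, Cyp51, Srebf1, Scap and Npc1 overlap exons of a gene on the opposite strand in the annotation, and reads of the overlap cannot be told apart.

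Promoter letters were compared because synthesis genes are known to share control by the Srebf factors, which act beside the factor NF-Y at the CCAAT box. Windows of 300 bases, from 250 before to 50 after the annotated start, were available from RefSeq (GRCm38.p6) for 25 of the 31 genes. They were searched on both strands for CCAAT, for CACNCCAC (the core of the sterol regulatory element) and for CACGTG (the E-box). The CCAAT box occurred in 14 of 15 synthesis genes (93.3%) and in 20 of all 25 genes (80.0%), against 41.1% of 27025 genes with a window and 37.4% of 32851 windows. The sterol regulatory core occurred in 3 of 25 genes (12%), Hmgcs1, Acat2 and Insig1, against 7.12% of genes and 6.24% of windows. The E-box occurred in 6 of 25 genes (24.0%), against 8.09% of genes and 7.15% of windows. A gene was counted when any of its windows held the motif. The shares of the 25 genes therefore compare with the shares of genes, not with those of windows. Such matches are letters only, and no binding was measured. The windows printed are of Hmgcs1 (chr13:119690101-119690400, plus strand) as the synthesis gene with the highest level, of Acat2 (chr17:12960676-12960975, minus strand), Lss (chr10:76531355-76531654, plus strand) and Cyp51 (chr5:4104648-4104947, minus strand) as synthesis genes whose values are described next, and of Insig1 (chr5:28071162-28071461, plus strand) as the sterol sensor that holds all 3 motifs. Each reads 5′ to 3′ along the gene. Capitals mark the motifs, where ATTGG is CCAAT on the other strand and GTGGCGTG is CACNCCAC on the other strand, and no pair of marked matches overlaps.
Hmgcs1: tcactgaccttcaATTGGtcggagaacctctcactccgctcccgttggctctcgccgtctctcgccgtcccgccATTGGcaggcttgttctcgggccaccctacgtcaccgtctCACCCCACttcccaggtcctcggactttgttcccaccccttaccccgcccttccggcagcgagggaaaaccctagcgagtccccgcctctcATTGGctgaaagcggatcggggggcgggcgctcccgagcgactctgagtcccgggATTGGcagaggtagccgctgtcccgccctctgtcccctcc
Acat2: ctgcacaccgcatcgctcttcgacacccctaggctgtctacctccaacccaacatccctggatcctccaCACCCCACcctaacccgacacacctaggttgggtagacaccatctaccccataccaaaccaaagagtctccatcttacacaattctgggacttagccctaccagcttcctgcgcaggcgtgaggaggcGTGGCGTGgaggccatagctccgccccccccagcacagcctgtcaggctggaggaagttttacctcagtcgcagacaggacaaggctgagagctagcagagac
Lss: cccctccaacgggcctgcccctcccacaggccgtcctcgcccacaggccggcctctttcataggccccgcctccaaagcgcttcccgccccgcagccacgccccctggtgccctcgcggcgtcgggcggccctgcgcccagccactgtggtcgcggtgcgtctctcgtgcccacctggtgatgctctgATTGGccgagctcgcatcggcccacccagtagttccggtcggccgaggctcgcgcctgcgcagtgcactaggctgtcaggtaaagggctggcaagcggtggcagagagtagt
Cyp51: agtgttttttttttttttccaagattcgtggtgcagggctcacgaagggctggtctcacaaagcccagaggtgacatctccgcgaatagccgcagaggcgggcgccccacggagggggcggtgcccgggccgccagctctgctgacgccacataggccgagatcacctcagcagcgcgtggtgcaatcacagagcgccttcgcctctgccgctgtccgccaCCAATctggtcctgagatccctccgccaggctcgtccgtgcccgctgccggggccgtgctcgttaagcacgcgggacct
Insig1: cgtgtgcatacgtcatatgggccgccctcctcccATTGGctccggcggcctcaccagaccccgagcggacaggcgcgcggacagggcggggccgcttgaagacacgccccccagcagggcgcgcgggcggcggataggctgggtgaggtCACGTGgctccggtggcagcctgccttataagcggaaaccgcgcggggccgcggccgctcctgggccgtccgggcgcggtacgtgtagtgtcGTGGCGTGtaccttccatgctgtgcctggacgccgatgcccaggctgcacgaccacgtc

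In the window of Hmgcs1 the CCAAT box began at bases -237, -176, -45 and 11 from the start site and the sterol regulatory core at -136. The core began at -181 and -53 in Acat2, the 1 synthesis gene of the 15 with no CCAAT box in any window. Lss and Cyp51 held 1 CCAAT box each, at -62 and -29. Insig1 held its CCAAT box at -216, its E-box at -101 and its sterol regulatory core at -9.

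Averaged over both sexes, synthesis enzymes were mostly a little lower in mutants than in WT mice, by a few percent, and no enzyme passed the adjusted threshold. The log2 difference was negative for 14 of 18 enzymes, against 50.1% of all 17496 tested genes, with a median of -0.05, where the median over all tested genes was -7.3e-05. At an unadjusted p under 0.05, 5 of 18 enzymes were lower (Acat2, Pmvk, Lss, Cyp51 and Ebp) and 0 were higher, against 4.47% of all tested genes lower and 4.4% higher. Over all 31 genes, 6 were lower and 1 was higher at that level. In limma 0 of 31 passed an adjusted p of 0.05 (smallest adjusted p 0.341), against 0.00572% of all tested genes, and edgeR and DESeq2 on recovered reads also called 0 of 31. In bulk tissue, fewer cells of a type and less RNA per cell cannot be told apart.

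Pmvk (ENSMUSG00000027952; chromosome 3, 89454541 to 89469013), the phosphomevalonate kinase, had the smallest p. It had 721, 759 and 762 normalized counts in mutant males, against 814, 866 and 815 in WT males. It had 735, 814.1 and 781 normalized counts in mutant females, against 814.4, 843 and 877 in WT females. Within each sex the genotypes did not overlap, though in females the nearest libraries, at 814.1 in mutants and 814.4 in WT, nearly met. Its mean was 762 ± 33.2 in mutants and 838 ± 28.4 in WT mice (SD, n = 6 each), a log2 difference of -0.14 (SE 0.04; 95% interval -0.22 to -0.06) that did not pass the adjustment (limma adjusted p = 0.341).

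Lss (ENSMUSG00000033105; chromosome 10, 76531588 to 76557138), lanosterol synthase, forms the first sterol ring system. It had 1451, 1401 and 1565 normalized counts in mutant males, against 1577, 1536 and 1616 in WT males. In females the counts were 1405, 1483 and 1470 in mutants, against 1526, 1644 and 1598 in WT. Mutant male 3 lay among the WT males, and the female groups did not overlap. The averaged log2 difference was -0.11 (SE 0.03; limma adjusted p = 0.361). Its annotated exons overlap those of 4930483K19Rik on the opposite strand.

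Cyp51 (ENSMUSG00000001467; chromosome 5, 4081145 to 4104746), which removes a methyl group from lanosterol, had 2359, 2327 and 2680 normalized counts in mutant males, against 2564, 2542 and 2712 in WT males. Counts were 2315, 2533 and 2341 in mutant females, against 2604, 2695 and 2690.5 in WT females. As with Lss, mutant male 3 lay within the WT range and the female groups did not overlap. The averaged log2 difference was -0.12 (SE 0.04; limma adjusted p = 0.401). Its exons overlap those of Akap9.

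Acat2 (ENSMUSG00000023832; chromosome 17, 12942890 to 12960747), the cytosolic thiolase that opens the pathway, had 762, 766 and 825 normalized counts in mutant males, against 770, 836 and 799 in WT males. Mutant females had 794, 793 and 748, against 882, 870 and 843 in WT females. The male groups overlapped and the female groups did not. The averaged log2 difference was -0.09 (SE 0.04; limma adjusted p = 0.481).

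Ebp (ENSMUSG00000031168; chromosome X, 8185329 to 8193512), the sterol isomerase, had 379, 430 and 451 normalized counts in mutant males, against 436, 509 and 454 in WT males. Mutant females had 408.5, 468.9 and 430, against 482, 510 and 468.9 in WT females. Both sexes overlapped, and with the lowest counts of these 5 enzymes Ebp also had a wide interval: its averaged log2 difference was -0.16 (95% interval -0.29 to -0.03; limma adjusted p = 0.469).

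The other 13 enzymes had averaged log2 differences between -0.10 and 0.12, each with a 95% interval that included 0. Idi1 lay lowest of these at -0.10, followed by Hmgcs1 and the decarboxylase Mvd at -0.06. The squalene epoxidase Sqle and the sterol dehydrogenase Nsdhl stood at -0.05, the desaturase Sc5d at -0.03, the methylsterol oxidase Msmo1 and the reductase Hsd17b7 at -0.02, and squalene synthase Fdft1 at -0.01. Above 0 were the mevalonate kinase Mvk at 0.02, Tm7sf2 and the dehydrocholesterol reductase Dhcr7 at 0.03, and Fdps at 0.12. The interval of Fdps ran from -0.21 to 0.45, so this gene was too sparsely counted to place. For Hmgcs1, the enzyme with the highest level, the interval was -0.16 to 0.03, which is -10.5% to 2.43% in mutants relative to WT.

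**Figure D2:**
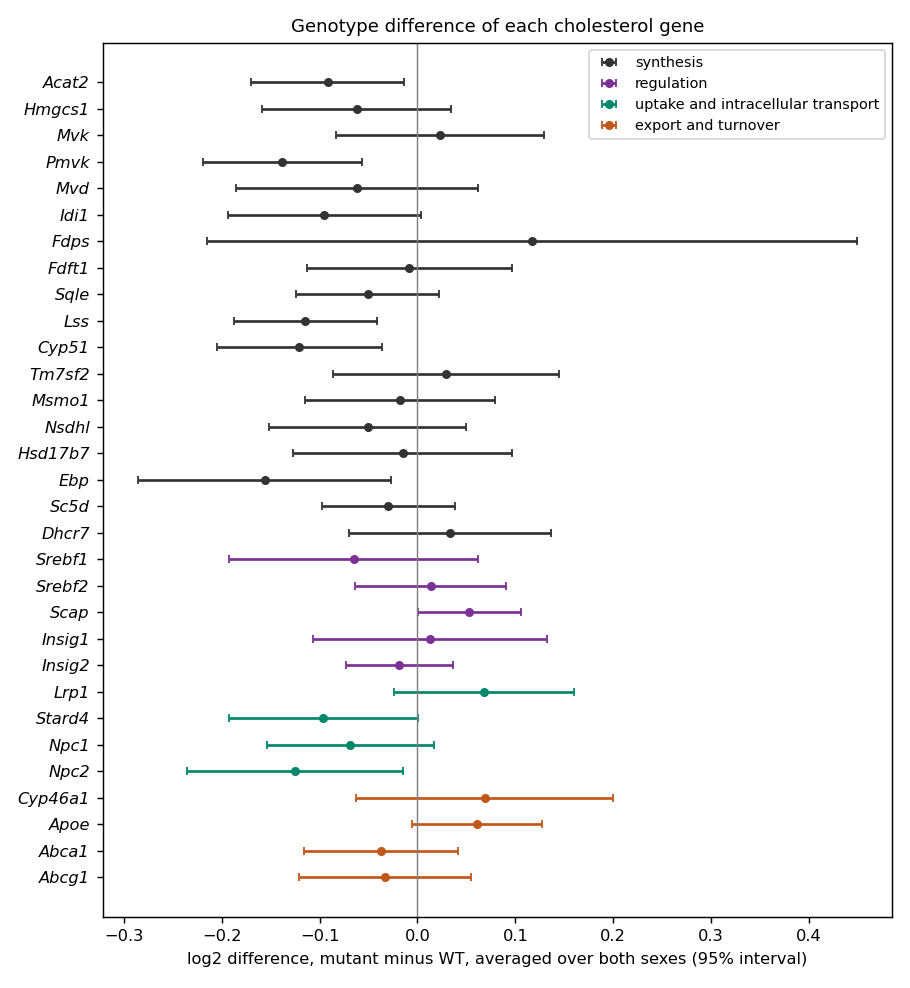
Log2 difference of each gene, mutant minus WT, averaged over both sexes (horizontal axis), with its 95% interval, by subgroup. Points of 14 of 18 synthesis enzymes lie left of 0, 5 of their intervals exclude 0, and Fdps has by far the widest interval.

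**Figure D3:**
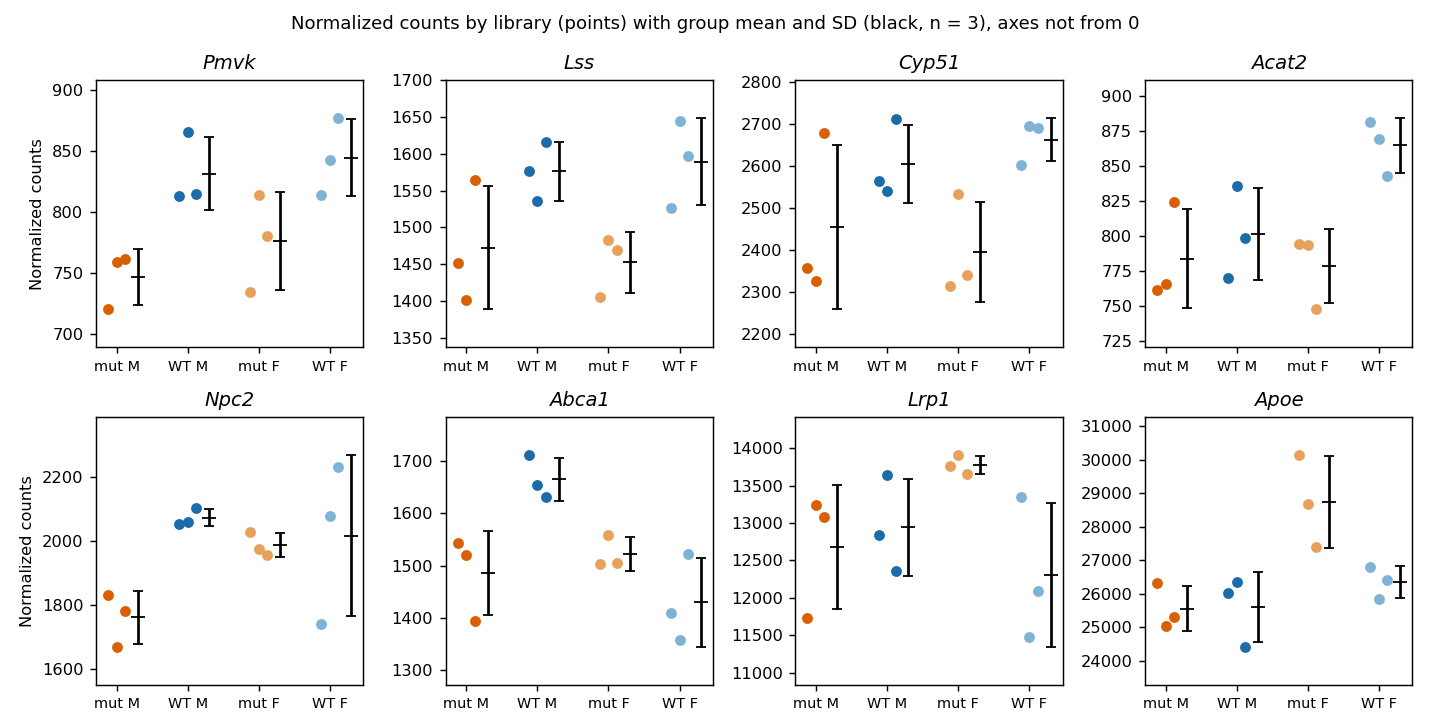
Normalized counts of 8 genes in each library (points), with group mean and SD in black (n = 3), on vertical axes that do not start at 0. Pmvk, Lss, Cyp51 and Acat2 of mutant females lie below those of WT females, Npc2 and Abca1 of mutant males lie below those of WT males, and Lrp1 and Apoe of mutant females lie above those of WT females.

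In some libraries most synthesis enzymes lay on the same side of their group's mean. In mutant male 3, 17 of 18 enzymes lay above the mean of mutant males, while 14 of 18 in mutant male 1 and 12 of 18 in mutant male 2 lay below it. Set against the WT mean of the same sex, the median over the 18 enzymes was -0.07, -0.11 and 0.04 on the log2 scale in mutant males 1 to 3, against -0.02, -0.01 and 0.03 in WT males. It was -0.11, -0.05 and -0.06 in mutant females, against -0.03, 0.02 and 0.005 in WT females. Mutant male 3 was thus the 1 mutant library above the WT mean, and without it 15 of 18 enzymes were negative, with a median of -0.07. Without mutant male 2 the median was -0.03, with 12 of 18 negative.

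Myelin markers had negative differences beside the synthesis enzymes. Of 12 markers of oligodendrocytes and myelin, a list chosen with earlier results of these data known, 12 had a negative averaged log2 difference. All 12 were lower at an unadjusted p under 0.05, against 4.47% of all tested genes. Their median was -0.24, and 0 passed the adjustment in limma. Their mean log2 level was 13.08, 13.23 and 13.45 in mutant males, against 13.54, 13.41 and 13.54 in WT males, and 13.34, 13.57 and 13.45 in mutant females, against 13.56, 13.78 and 13.73 in WT females. Their summed level ran from 320329 to 444512 normalized counts in mutant libraries, against 406593 to 519889 in WT libraries, with 0 markers at 0 in any library. Of 5 markers of oligodendrocyte precursors, 3 were negative, each at an unadjusted p under 0.05, against 4.47% of all tested genes (median -0.15), and 0 passed the adjustment. In each group, mutant or WT, the library highest in myelin markers also had the most synthesis enzymes above its group mean. These were 17 of 18 in mutant male 3, 14 of 18 in mutant female 2, 10 of 18 in WT male 3 and 11 of 18 in WT female 2. WT male 1 was nearly as high in myelin markers as WT male 3 and had 6 of 18 above. With the myelin score as a covariate the median of the synthesis enzymes was 0.01 (10 of 18 positive), and the log2 difference was -0.08 for Pmvk, -0.06 for Ebp, -0.03 for Lss and -0.01 for Cyp51. The score itself differed with genotype, so this fit cannot tell score and genotype apart, and the part of myelin was not tested. When the choroid plexus score was the covariate instead, the synthesis median was -0.04 with 14 of 18 negative, and without the 3 libraries low in choroid plexus markers it was -0.07 with 16 of 18 negative.

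**Figure D4:**
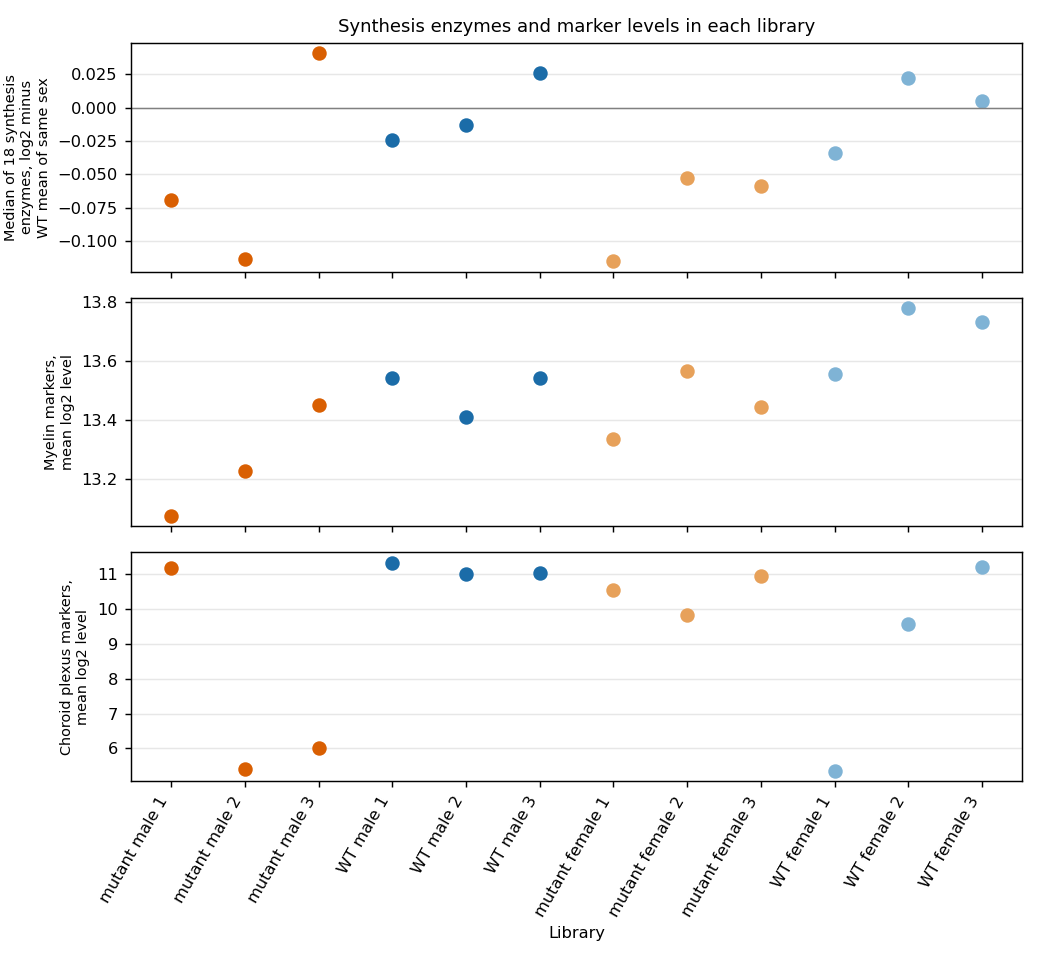
For each of the 12 libraries, the median log2 distance of 18 synthesis enzymes from the WT mean of the same sex (top), and the mean log2 level of 12 myelin markers (middle) and 12 choroid plexus markers (bottom). Mutant male 3 is the 1 mutant library above 0 in the top panel at 0.04, and the 3 libraries at 5.35 to 6.00 in the bottom panel are mutant male 2, mutant male 3 and WT female 1.

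Within each sex, more synthesis enzymes were negative than positive. In males 13 of 18 enzymes had a negative log2 difference (median -0.03), against 49.4% of all tested genes, with 1 lower at an unadjusted p under 0.05, Pmvk. In females 15 of 18 were negative (median -0.07), against 49.5% of all tested genes, with 4 lower at that level, Acat2, Cyp51, Lss and Pmvk, which are also the 4 enzymes whose female groups did not overlap. Of the 18, 12 were negative in both sexes, 2 positive in both and 4 of opposite sign. In limma 0 of 31 cholesterol genes passed the adjustment in males, where 5 were lower and 1 higher at an unadjusted p under 0.05 against 6.23% and 4.1% of all tested genes and 0.0% passed the adjustment. In females 0 of 31 passed, with 5 lower and 2 higher against 3.07% and 3.82% of all tested genes and 0.0% past the adjustment. Groups did not overlap for 5 lower genes and 1 higher gene in males, against 7.68% and 8.37% of all tested genes, and for 5 lower and 2 higher genes in females, against 5.66% and 5.14%. The male and female comparisons share no library, but both come from 1 fit with a shared estimate of spread, and depth differed with genotype in both.

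**Figure D5:**
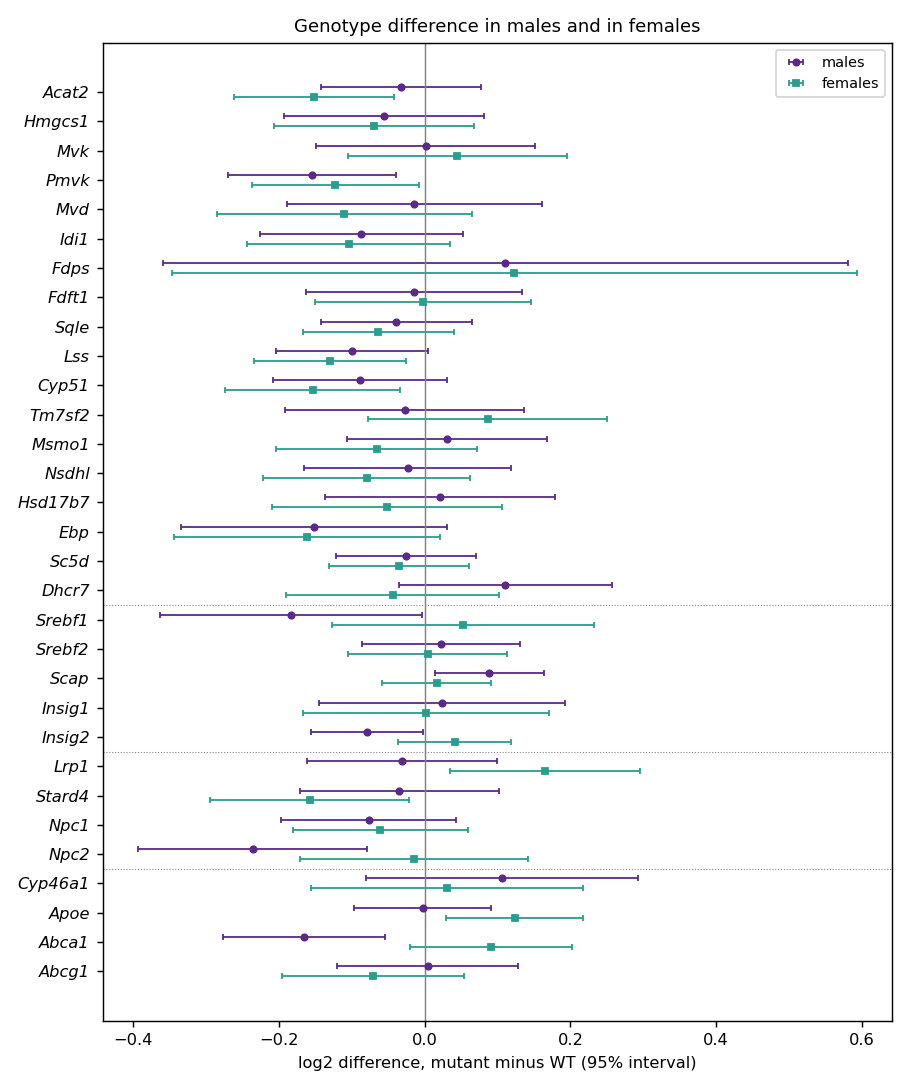
Log2 difference of each gene, mutant minus WT, in males (circles) and in females (squares), with 95% intervals, in the order synthesis, regulation, uptake and intracellular transport, export and turnover. Intervals of the sexes overlap for most genes, and Abca1 has its male point at -0.17 and its female point at 0.09.

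Among the regulators, the averaged differences were small and of both signs: 3 of 5 were positive and 2 negative, with a median of 0.01. Srebf2, the main activator of synthesis genes, had an averaged log2 difference of 0.01 (95% interval -0.06 to 0.09), and the sterol sensor Insig1 one of 0.01 (-0.11 to 0.13). Scap (ENSMUSG00000032485; chromosome 9, 110333288 to 110384950) had 2089, 2177 and 2027 normalized counts in mutant males, against 1976, 1996 and 1942 in WT males. It had 2150, 2140 and 2176 in mutant females, against 2146, 2091 and 2154 in WT females. Every mutant male lay above every WT male, while the female groups overlapped. The log2 difference was 0.05 averaged over the sexes (SE 0.02; limma adjusted p = 0.562) and 0.09 in males (limma adjusted p = 0.446).

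Srebf1 (ENSMUSG00000020538; chromosome 11, 60199089 to 60222581), the activator linked most to fatty acid genes, had 1270, 1136 and 1101 normalized counts in mutant males, against 1369, 1272 and 1334 in WT males. Mutant females had 1351, 1299 and 1405, against 1228, 1190 and 1513 in WT females. The male groups did not overlap but nearly met, and WT females spread over the whole range of mutant females. The male log2 difference was -0.18 (SE 0.08; limma adjusted p = 0.477), and it was -0.05 when fitted with the choroid plexus score and -0.06 without the 3 libraries low in those markers, where the mutant males are mutant male 1 alone. Insig2 (ENSMUSG00000003721; chromosome 1, 121304353 to 121332589), the second Insig protein, had 1280, 1257 and 1271 normalized counts in mutant males, against 1342, 1342 and 1338 in WT males. It had 1289, 1332 and 1344 in mutant females, against 1308, 1246 and 1299 in WT females. The males separated with very little spread in each group, a log2 difference of -0.08 (SE 0.04; limma adjusted p = 0.477), while the female groups overlapped.

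In uptake and intracellular transport, 3 of 4 averaged differences were negative, with a median of -0.08. Npc2 (ENSMUSG00000021242; chromosome 12, 84754562 to 84773152), which lifts cholesterol out of the lysosome lumen, had 1831, 1670 and 1781 normalized counts in mutant males, against 2054, 2060 and 2103 in WT males. Counts were 2028, 1973 and 1956 in mutant females, against 1739, 2079 and 2230 in WT females. The 3 lowest values, in mutant male 2, WT female 1 and mutant male 3, belong to the 3 libraries lowest in choroid plexus markers, whose 12 markers summed to 6401, 7101 and 7324 normalized counts there, against 77347 to 259386 in the other 9 libraries. The averaged log2 difference was -0.13 (SE 0.05; limma adjusted p = 0.497), and it was -0.24 in males (limma adjusted p = 0.410). When fitted with the choroid plexus score these were -0.09 and -0.10, and without the 3 libraries -0.15 and -0.18, the second from mutant male 1 alone against WT males.

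Stard4 (ENSMUSG00000024378) had 727, 638 and 707 normalized counts in mutant males, against 674, 741 and 706 in WT males. It had 641, 708 and 675 in mutant females, against 723, 774 and 761 in WT females. Only the female groups were apart, and the log2 difference was -0.10 averaged over the sexes (SE 0.04; limma adjusted p = 0.562) and -0.16 in females (limma adjusted p = 0.643). Lrp1 (ENSMUSG00000040249; chromosome 10, 127538161 to 127621148), the large endocytic receptor for apolipoprotein E, had 11734, 13239 and 13076 normalized counts in mutant males, against 12839, 13638 and 12356 in WT males. Counts were 13766, 13903 and 13655 in mutant females, against 13352, 11475 and 12091 in WT females. The mutant females lay close together above all WT females, while the male groups overlapped, and the log2 difference was 0.17 in females (SE 0.06; limma adjusted p = 0.609) and -0.03 in males (limma adjusted p = 0.906). Npc1, the membrane partner of Npc2, had an averaged log2 difference of -0.07 (95% interval -0.15 to 0.02).

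In export and turnover, 2 of 4 averaged differences were positive and 2 negative, with a median of 0.01. Apoe (ENSMUSG00000002985; chromosome 7, 19696109 to 19699188) had 26316, 25054 and 25310 normalized counts in mutant males, against 26040, 26362 and 24432 in WT males. It had 30126, 28676 and 27386 in mutant females, against 26800.0, 25852 and 26417 in WT females. The male groups overlapped, and each mutant female lay above each WT female. The female log2 difference was 0.12 (SE 0.04; limma adjusted p = 0.590), and the averaged one was 0.06 (95% interval -0.006 to 0.13; limma adjusted p = 0.590). Beside the female differences of Apoe and Lrp1, the 6 fibroblast markers summed to 10710 to 18717 normalized counts in mutant females, against 4564 to 9787 normalized counts in WT females, and the 5 red blood cell markers to 1267 to 1793 normalized counts in mutant females, against 748 to 1081 normalized counts in WT females, with 0 markers at 0. Choroid plexus markers were positive in females for 12 of 12 (median 1.68, with 0 at an unadjusted p under 0.05). Astrocyte markers were positive in females for 3 of 8 (median -0.01). Of these 8, 1 was higher at an unadjusted p under 0.05, against 3.82% of all tested genes. The part of all these markers in both differences was not tested.

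Abca1 (ENSMUSG00000015243; chromosome 4, 53030787 to 53159895), the transporter that loads cholesterol onto apolipoproteins, had 1543, 1519 and 1394 normalized counts in mutant males, against 1710, 1653 and 1631 in WT males. It had 1502, 1559 and 1505 in mutant females, against 1410, 1357 and 1523 in WT females. WT males held the 3 highest values of all 12 libraries, and the other 3 groups overlapped one another. The log2 difference was -0.17 in males (SE 0.05; limma adjusted p = 0.410) and 0.09 in females (SE 0.05; limma adjusted p = 0.789). Without the 3 libraries low in choroid plexus markers the male difference was -0.11, from mutant male 1 alone against WT males. Cyp46a1 (ENSMUSG00000021259; chromosome 12, 108334381 to 108362234), the neuronal cholesterol hydroxylase, had 3178, 3578 and 3514 normalized counts in mutant males, against 3126, 3254 and 3152 in WT males. Mutant females had 3635, 3097 and 3505, against 3814, 3311 and 2927 in WT females. Groups overlapped in both sexes, with an averaged log2 difference of 0.07 (SE 0.06; limma adjusted p = 0.781). Abcg1, another sterol exporter, stood at -0.03 (95% interval -0.12 to 0.05).

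Whether the genotype difference itself differed between the sexes was tested as the male difference minus the female difference. In limma 0 of 31 genes passed the adjustment, and 4 were lower at an unadjusted p under 0.05 (Abca1, Insig2, Lrp1 and Npc2) and 0 higher, against 5.41% and 2.44% of all tested genes, of which 0.0% passed the adjustment. Abca1 had the largest gap among these at -0.26 (95% interval -0.41 to -0.10; limma adjusted p = 0.619). It was followed by Npc2 at -0.22, Lrp1 at -0.20 and Insig2 at -0.12. Npc2 stood at -0.02 when the choroid plexus score was fitted and at -0.06 without the 3 libraries low in those markers, and at -0.12 without WT female 1 alone. For Abca1 that score and the smaller set of libraries each gave -0.19. Lrp1 stood at -0.36 with the score and -0.37 without those libraries. The values without the 3 libraries take their male difference from mutant male 1 alone.

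Males and females were also compared across both genotypes, as male minus female. Cholesterol genes differed little: 0 of 31 passed the adjustment in limma, against 0.0686% of all tested genes. At an unadjusted p under 0.05, 1 gene was higher in males and 2 were lower, against 3.1% and 3.54% of all tested genes. Apoe averaged 25586 ± 779 normalized counts in males and 27543 ± 1591 in females (SD, n = 6 each), a log2 difference of -0.10 (limma adjusted p = 0.537). Scap averaged 2034 ± 85.9 in males and 2143 ± 28.0 in females, a log2 difference of -0.08 (limma adjusted p = 0.571). Abca1 averaged 1575 ± 114 in males and 1476 ± 76.2 in females, a log2 difference of 0.09 (limma adjusted p = 0.653). The median over the synthesis enzymes was -0.02, with 11 of 18 negative, against 52.3% of all tested genes. Myelin markers were negative in this comparison for 12 of 12 (median -0.19, with 10 at an unadjusted p under 0.05) and red blood cell markers positive for 5 of 5 (median 0.73, all at that level), and 0 of either passed the adjustment. With the myelin score as a covariate the synthesis median for sex was 0.03, with 13 of 18 positive. That score differed with sex, so the fit cannot tell score and sex apart.

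Neighbouring pathways were followed through fixed lists, with the 3 genes of smallest p named for each. In the averaged genotype comparison 0 of their genes passed the adjustment in limma or edgeR, and 1 did in DESeq2, Scd1. Of 10 genes of fatty acid synthesis linked to Srebf1, 3 were lower at an unadjusted p under 0.05 and 0 higher, against 4.47% and 4.4% of all tested genes: the desaturases Scd1 (-0.14 on the log2 scale) and Scd2 (-0.08) and the elongase Elovl6 (-0.10). Scd1 had 4524, 4257 and 4523 normalized counts in mutant males, against 5041, 4577 and 4832 in WT males, and 4803, 4975 and 4817 in mutant females, against 5435, 5285 and 5539 in WT females. The groups were apart in both sexes, and its adjusted p was 0.285 in limma and 0.0108 in DESeq2 on recovered reads, which called 75 of all genes. The other 7 genes of that list brought its median to -0.03, with 6 of 10 negative. For sex, male minus female, 9 of 10 were negative and 3 were lower at an unadjusted p under 0.05, against 3.54% of all tested genes. In limma 0 of them passed the adjustment for sex. DESeq2 called 48 of all genes for sex, among them Scd1 (-0.15, DESeq2 adjusted p = 0.00165) and Scd2 (-0.11, DESeq2 adjusted p = 0.0102).

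Of 12 genes of precursor supply and shared steps, 11 were tested and 8 had a negative averaged log2 difference. The electron donor Por stood at 0.09 and the acetyl-CoA synthetases Acss1 and Acss2 at -0.09 and -0.07. Por alone was under an unadjusted p of 0.05, and higher, against 4.4% of all tested genes. Of 10 genes of Srebf processing and sterol-regulated degradation, 5 were positive and 5 negative, with Erlin1 at 0.06, the ubiquitin ligase Rnf145 at 0.04 and Aup1 at -0.03. Of 6 sterol-sensing nuclear receptors and partners, 5 were positive, with Rxra at 0.09 and both Ncor1 and Rxrb at 0.03. In the averaged comparison neither of these lists had a gene under an unadjusted p of 0.05. Within a sex, the Srebf processing list had 1 gene lower in males at that level, against 6.23% of all tested genes. The receptor list had 2 higher in females, against 3.82%. For genotype by sex these lists had 1 and 2 lower, against 5.41%, and 0 passed the adjustment in limma.

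Of 14 genes of sterol transport and esterification, 6 were positive and 8 negative. The oxysterol-binding Osbpl2 stood at 0.10, and the sterol carrier Stard5 and the lysosomal lipase Lipa at -0.13 and -0.10. Osbpl2 alone was under an unadjusted p of 0.05, and higher, against 4.4% of all tested genes. In males 3 of the 14 were lower and 1 higher at that level, against 6.23% and 4.1%. Male groups did not overlap for 5 lower and 1 higher, against 7.68% and 8.37%. In females 0 were at that level, and for genotype by sex 2 were lower, against 5.41%. In limma 0 passed the adjustment. Of 7 genes of other export and oxysterol enzymes, 6 were tested. Abca2, a lipid transporter abundant in oligodendrocytes, stood at -0.08, the sterol hydroxylase Cyp27a1 at -0.10 and the transporter Abcg4 at 0.04. Abca2 alone was under an unadjusted p of 0.05, and lower, against 4.47% of all tested genes.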

How the data were processed

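RNA of 12 hippocampal libraries was prepared with Illumina's TruSeq v2 RNA kit, per the labels. Tools named in the submitters' processing notes are Trimmomatic 0.35, TopHat2 2.1.0, HTSeq and DESeq2, with build GRCm38. The sources used here give neither the role of each nor the annotation release. The authors deposited 1 table of signal: counts of reads per Ensembl gene, already divided by a size factor. This was read from the values, which are whole multiples of 1 step in each library (tolerance 0.001 reads). In WT male 1 the step lies close to 1, so the reading is less certain there, and it still enters the count tests. The table holds 0 columns of other samples.

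Groups and replicate numbers came from the titles. GENCODE M21 gave symbols, exon lengths (union of exons) and GRCm38 coordinates for 45143 of 46078 IDs. IDs averaging 10 or more (17496) were tested with limma 3.58.1 in R 4.3.3, with its trend option, on log2(value + 1) and 1 mean per group over all libraries, which understates changes of low genes. Contrasts were genotype averaged over sexes, in males, in females, genotype by sex, and sex. The other 23 settings include edgeR 4.0.16 and DESeq2 1.42.0 on recovered reads, and each was fitted to all genes. No pair of libraries within a group lay within sampling noise (chi-square per degree of freedom 3.22 to 27.6). The members, lists and tests were chosen with earlier results of these data known. Values per library are given for members with an unadjusted p under 0.05 in any contrast, and for at least the 2 of each subgroup with the smallest p in the averaged contrast. The fit was tested on simulated data.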

Additional observations from a re-analysis of the deposited data

How the results depend on the processing

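Across 23 alternative settings and 5 contrasts, 0 of the 31 cholesterol genes passed an adjusted p of 0.05, and the smallest adjusted p was 0.115, for Cyp51 without mutant male 3. Counts over all genes moved more. For genotype averaged over sexes, 1 gene was called, against 75 with DESeq2, 82 without the 3 libraries low in choroid plexus markers, 0 with upper-quartile factors, no filter, the replicate block or the myelin score, and 0 to 8 without any 1 library. DESeq2 and the smaller set of libraries called 25 and 12 genes in males, 9 and 1 in females, and 3 and 2 for genotype by sex, where limma called 0 in each and 0 to 1 without any 1 library. Without those 3 libraries the mutant males are mutant male 1 alone, which is assumed to vary like the other groups, so the values for males and genotype by sex describe that library. DESeq2 and the smaller set called 48 and 34 for sex, against 12 in limma. Chd8 lost its call with upper-quartile factors (-0.23, adjusted p = 0.0672), no filter (-0.22, 0.0538), the replicate block (-0.22, 0.131), the myelin score (-0.23, 0.837) and without 10 of the 12 libraries in turn (-0.24 to -0.21). The cause was not tested. Replicate numbers did not pair libraries: correlations of same-numbered libraries ran from -0.58 to 0.29, 4 of 18 were over 0.1, and 3 of 12 libraries correlated best with their own number. The replicate block called 0 cholesterol genes.

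The myelin score differed with genotype, so a fit with it cannot tell score and genotype apart. With the myelin score as a covariate the averaged log2 difference turned to 0.076 for Hmgcs1, 0.0092 for Mvd, 0.031 for Idi1, -0.0066 for Fdps, 0.028 for Fdft1, 0.050 for Msmo1, 0.098 for Hsd17b7, 0.024 for Sc5d and -0.0045 for Cyp46a1. Among neighbouring pathway genes it turned to -0.0076 for Erlin1, -0.014 for Rnf145, 0.0062 for Elovl6, 0.12 for Cyp27a1 and 0.0043 for Acss2. Without the 3 libraries low in choroid plexus markers it turned to -0.0017 for Mvk, -0.0040 for Dhcr7, -0.0029 for Srebf2 and -0.032 for Insig1. Without any 1 library, signs were not fixed for Mvk (-0.0034 to 0.057), Fdft1 (-0.044 to 0.016), Tm7sf2 (-0.0073 to 0.070), Msmo1 (-0.051 to 0.020), Hsd17b7 (-0.062 to 0.017), Srebf2 (-0.0093 to 0.035) and Insig1 (-0.042 to 0.048).

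Subgroup medians moved by more than the spread between libraries as follows. With the myelin score, synthesis stood at 0.011 averaged, 0.024 in males, 0.0011 in females and 0.026 for sex, uptake and transport at 0.011 in females, and export at -0.033 averaged, -0.039 in males, 0.0065 in females and -0.052 for sex. With upper-quartile factors, regulation stood at 0.043 in males, -0.0064 in females and 0.061 for genotype by sex, uptake and transport at -0.062 and export at 0.018 for genotype by sex. With the score of choroid plexus, regulation stood at -0.0021 in males and -0.019 for genotype by sex, uptake and transport at -0.12 and -0.066, and export at -0.052 and -0.13. Without the 3 libraries low in choroid plexus markers, and so with mutant male 1 as the 1 mutant male, regulation stood at -0.0053 in males, -0.0049 for genotype by sex and -0.054 for sex, uptake and transport at -0.16 in males and -0.081 in females, and export at 0.11 in females and -0.11 for genotype by sex. Without any 1 library, regulation ran from -0.012 to 0.035 averaged, -0.023 to 0.061 in males, 0.0098 to 0.041 in females, -0.049 to 0.056 for genotype by sex and -0.073 to -0.0093 for sex. Uptake and transport ran from -0.081 to 0.0053 in females and -0.14 to -0.051 for genotype by sex, and export from 0.032 to 0.11 in females and -0.081 to 0.0098 for genotype by sex. Medians of 4 or 5 genes shift with 1 gene, and depth differed between genotypes in every library, so its part in any difference cannot be told apart.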
